A study of Mus musculus with 2 samples.

Results

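The 6 genes Mfsd2a, Tlcd3a, Pcdh20, Nxph3, Phlda2 and B930025P03Rik, which rarely figure in work on the liver, were followed between fasting and feeding. They were chosen by name because their change between the 2 arrays of the study was among the largest, so that the change itself is given here as a description and no test is made of it. Each of the 6 genes was represented by 1 probe and 1 spot on each array, out of 20652 genes with a matched probe and 16346 genes measured. Mfsd2a, Tlcd3a, Pcdh20 and B930025P03Rik were lower upon feeding, by 21.9- to 29.0-fold, and Nxph3 and Phlda2 were higher, by 12- and 10.6-fold. These sizes depend on the background correction for every gene except Mfsd2a, and with another correction, normexp, they were 7.3-fold for Tlcd3a, 2.77-fold for Pcdh20, 3.82-fold for B930025P03Rik, 3.56-fold for Nxph3 and 4.08-fold for Phlda2.

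The study examined how the thyroid hormone acts on glucose homeostasis through the liver, and used these arrays to find hepatic genes regulated by food intake. Total RNA was taken from the livers of male C57BL/6 J mice aged about 8 to 12 weeks, according to the methods for the animals of the study. The fasting group had been without food for 16 h in one label and for about 14 to 16 h overnight in another, while the feeding group was described both as ad libitum-fed and as given nutrition after such a fast. Neither group received a drug or carried a modified allele according to the labels. RNA of 3 mice was pooled in each group and hybridised to 1 one-colour Agilent array per group, and both arrays were read in 1 scan of 1 slide. With 1 array per group there is no replicate, so no error between mice, no standard error and no p-value can be given, and a difference is a comparison of 2 pools.

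Mfsd2a is a sodium-dependent carrier of lysophosphatidylcholine, best known for bringing docosahexaenoic acid across the blood-brain barrier, and its transcript is known to be induced by fasting in liver. Tlcd3a, formerly Fam57a, encodes a membrane protein with the TLC domain that it shares with the ceramide synthases, whereas Pcdh20 is a protocadherin, an adhesion molecule of the cadherin superfamily, and B930025P03Rik is annotated by RefSeq as a long non-coding RNA. Nxph3 is a neurexophilin, a secreted ligand of the alpha-neurexins described mainly in the brain, and Phlda2 is an imprinted gene, expressed from the maternal allele, whose small pleckstrin homology protein restrains the growth of the placenta.

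The bases before the annotated start are shown first for 5 of the genes, since 4 of the 6 genes were lower together and their starts can be set side by side. They come from the RefSeq promoter table for GRCm38.p6 and are written 5′ to 3′ on the strand of the gene. That table holds no window for Nxph3. The 250 bases before the start are printed in lower case, and capitals mark the matches on either strand to the motifs searched. In Mfsd2a (chr4:122961189-122961438, minus strand), Pcdh20 (chr14:88471397-88471646, minus strand) and B930025P03Rik (chr8:10882455-10882704, minus strand) the capitals are CCAAT boxes, the last gene having 2. In Tlcd3a the table gives 2 starts, and the window shown (chr11:76179421-76179670, plus strand) holds a CCAAT box. The other (chr11:76201842-76202091, plus strand) had no match to any motif searched and is not shown. Which of these starts belongs to the transcript read by the probe was not worked out, so the window shown may not be that of the measured transcript. In Phlda2 (chr7:143502525-143502774, minus strand) the capitals mark, from left to right, TGACG on the opposite strand, a CCAAT box and a TATA box.
Mfsd2a: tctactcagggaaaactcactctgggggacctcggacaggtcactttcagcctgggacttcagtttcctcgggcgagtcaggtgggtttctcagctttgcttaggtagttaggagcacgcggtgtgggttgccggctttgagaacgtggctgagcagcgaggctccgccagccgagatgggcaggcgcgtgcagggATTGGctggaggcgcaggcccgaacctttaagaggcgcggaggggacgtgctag
Tlcd3a: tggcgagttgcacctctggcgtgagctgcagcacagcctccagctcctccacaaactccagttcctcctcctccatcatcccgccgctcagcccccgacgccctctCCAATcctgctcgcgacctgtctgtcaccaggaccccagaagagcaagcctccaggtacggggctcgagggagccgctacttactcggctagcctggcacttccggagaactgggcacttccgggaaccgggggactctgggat
Pcdh20: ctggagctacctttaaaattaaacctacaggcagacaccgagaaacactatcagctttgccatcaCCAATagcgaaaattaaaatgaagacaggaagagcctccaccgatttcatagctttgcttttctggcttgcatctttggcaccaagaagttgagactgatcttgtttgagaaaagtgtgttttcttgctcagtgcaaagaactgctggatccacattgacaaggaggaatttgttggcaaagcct
B930025P03Rik: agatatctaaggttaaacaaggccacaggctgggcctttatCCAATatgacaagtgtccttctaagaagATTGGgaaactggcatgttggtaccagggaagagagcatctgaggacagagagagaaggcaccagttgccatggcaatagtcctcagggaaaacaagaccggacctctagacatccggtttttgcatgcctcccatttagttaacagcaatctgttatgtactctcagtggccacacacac
Phlda2: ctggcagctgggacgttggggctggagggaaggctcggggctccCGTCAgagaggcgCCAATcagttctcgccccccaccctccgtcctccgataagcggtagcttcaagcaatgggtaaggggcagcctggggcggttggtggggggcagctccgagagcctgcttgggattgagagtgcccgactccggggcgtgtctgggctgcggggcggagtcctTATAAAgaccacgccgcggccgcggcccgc

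The search covered 300 bases, of which 250 lie before the start, in 32851 promoter windows of the table, and a match describes letters only. A CCAAT box was present in 5 of the 6 windows of these genes, all but the second of Tlcd3a, and in 37.4% of all windows, so that these letters are common. Its leftmost base as printed lay at -54 from the start in Mfsd2a, at -144 in Tlcd3a, at -185 in Pcdh20, at -209 and -181 in B930025P03Rik and at -193 in Phlda2. Of the genes higher upon feeding only Phlda2 had a window, since Nxph3 was absent, so motifs cannot be set against direction. Phlda2 was the only one of the 5 genes with TATAAA, at -30 from the start, a motif held by 13.6% of all windows. It also held TGACG, the core of a cyclic AMP response element, at -206, where 20.8% of windows have it. The FoxO motif GTAAACA (3.65% of all windows), the full cyclic AMP response element TGACGTCA (1.79%), the E-box CACGTG (7.15%) and the sterol response element TCACNCCAC (1.24%) had no match in the windows of the 5 genes. Nor did the peroxisome proliferator response element, a direct repeat with a spacer base (0.0396% of all windows), the glucocorticoid response element (0.0639%) or the ER stress element, which begins with a CCAAT box (0.119%).

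The windows differed in composition. The windows of Tlcd3a had 63% and 76.7% G and C, that of Mfsd2a 60.3% and that of Phlda2 65.7%, with 17, 40, 22 and 26 CpG dinucleotides in this order, against medians of 52.7% and 7 over all windows. The windows of Pcdh20 and B930025P03Rik were poorer in both, with 43.7% and 47.3% G and C and 4 CpG dinucleotides each. Genes that were lower upon feeding were therefore found with windows on either side of the median.

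For the 6 genes, the signal of each array is given as the processed signal, an intensity after background subtraction, with the error that the image analysis attached to that spot. The change is the difference of the log2 signals after quantile normalization, and its spread on the array is the SD of a difference between replicate spots of like signal, taken from the probes spotted 10 times. On each array all 6 spots passed as well above background, were not saturated and carried no outlier flag.

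Mfsd2a, the lysophosphatidylcholine carrier, had a processed signal of 21520 ± 2150 (error of the spot, 1 array) upon fasting and of 936.9 ± 93.7 upon feeding. Its probe, A_51_P279437 for the transcript NM_029662, stayed far above the local background, with a raw signal of 857 times that background upon fasting and of 39.1 times upon feeding. The normalized signal was 21240 and then 969.1, a change of -4.45 on the log2 scale (21.9-fold lower), against a spot SD of 0.09. With both spots moved by 1 such error toward or away from each other, the fold would lie between 17.9 and 26.8. The ranges given for the other genes were formed in the same way, and none of them bounds the fold.

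Tlcd3a, the TLC domain gene, was read by the probe A_55_P1997310 for NM_027773. It gave a processed signal of 1050 ± 105 with fasting RNA and of 39.11 ± 4.18 with feeding RNA, and the raw signal was 38.4 and 3.44 times the local background. The normalized signals of 1019 and 42.17 gave a change of -4.59 (24.2-fold lower), with a spot SD of 0.16 and a fold between 19.6 and 29.8 by the errors of the spots. The feeding value was thus only a few times its own background, while the fasting value was far from it.

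Pcdh20, the protocadherin, had a processed signal of 256.9 ± 25.9 upon fasting and of 9.402 ± 1.69 upon feeding with the probe A_52_P250400 for NM_178685. The change was -4.62 (24.6-fold lower, normalized signals 241.2 and 9.811), and the spot SD of 0.41 was the widest of the 6 genes. Upon feeding the raw signal of 46.0 was 2.09 times the local background, and 1 of the 153 negative control spots of that array was at or above it. Of the spots with a signal within 10% of it, 92.6% were well above background, so the feeding value of Pcdh20 lay close to the limit of the array.

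B930025P03Rik, the long non-coding RNA, was read by the probe A_55_P2399499 for NR_040705. The spot gave 422.9 ± 42.5 with fasting RNA and 13.07 ± 2.16 with feeding RNA, which after normalization (399.1 and 13.74) was a change of -4.86, or 29.0-fold lower, with a spot SD of 0.39. The raw feeding signal was again 46.0, or 1.92 times the local background, with 1 of 153 negative controls at or above it. The fold, between 22.4 and 38.3 by the errors of the spots, therefore set a fasting value far from background against a feeding value near it, as for Pcdh20.

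The 2 genes that were higher upon feeding had the value nearer to background on the fasting array. Nxph3, the neurexophilin, was read by A_51_P254262 for NM_130858, with a processed signal of 52.91 ± 6.74 upon fasting and of 560.8 ± 56.1 upon feeding. The normalized signals of 48.89 and 587.7 gave a change of 3.59 (12-fold higher), against a spot SD of 0.16 and with a fold between 9.6 and 15.2 by the errors of the spots. Upon fasting its raw signal of 83.5 was 3.8 times the local background, and 1 of the 153 negative controls was at or above it.

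Phlda2, the imprinted gene, was read by A_52_P350786 for NM_009434 with a processed signal of 56.73 ± 6.61 upon fasting and of 530.9 ± 53.1 upon feeding. The change was 3.41 (10.6-fold higher, normalized signals 52.35 and 554.7), with a spot SD of 0.16 and a fold between 8.54 and 13.2. Its raw signal was 3.34 times the local background upon fasting and 27.2 times upon feeding, and no negative control of the fasting array reached it.

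**Figure D1:**
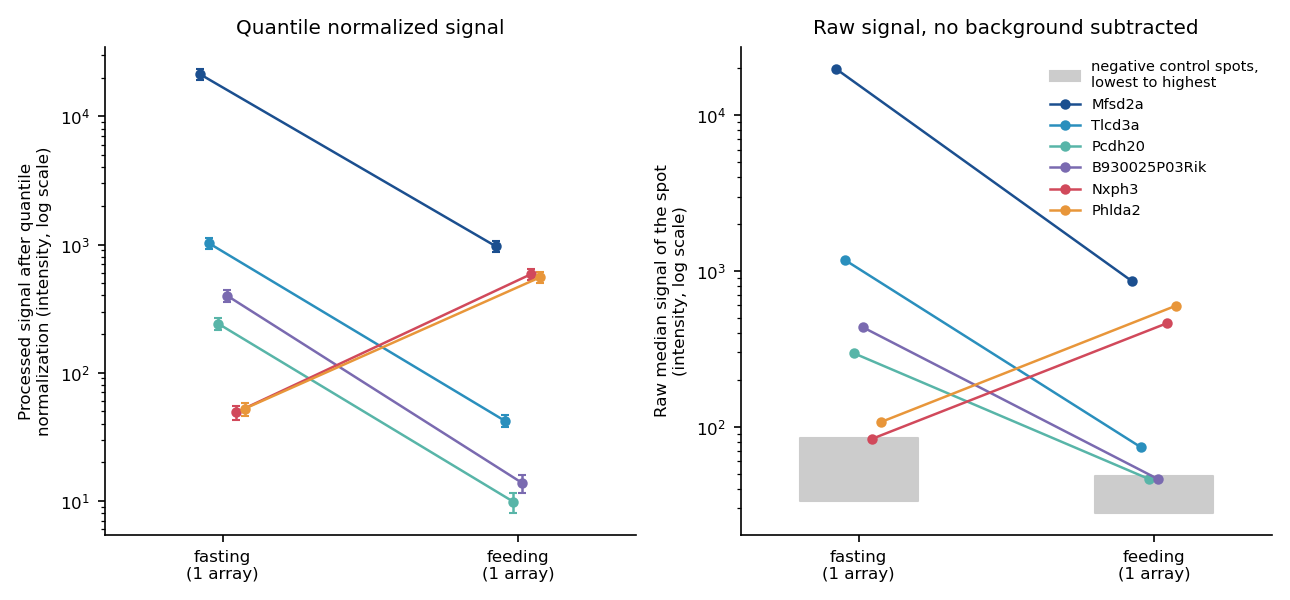
Signal of the 6 genes on the fasting and the feeding array, each a pool of 3 mice, on a log scale. Left, the processed signal after quantile normalization (intensity), with bars for the error that the image analysis gave the spot; right, the raw median signal of the spot with nothing subtracted, with a grey box from the lowest to the highest of 153 negative control spots. Mfsd2a is far above the controls on both arrays, whereas Pcdh20 and B930025P03Rik upon feeding and Nxph3 upon fasting lie inside the box.

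The spots around each member on the slide were read as well. Among the 24 spots nearest to a member, 13 to 20 held a probe that was not dim on both arrays, and their median change ran from -0.07 around Tlcd3a to 0.23 around B930025P03Rik. Around Mfsd2a, Nxph3 and B930025P03Rik at most 1 such spot was past 2-fold. Around Tlcd3a 2 of 13 were, around Phlda2 5 of 17 and around Pcdh20 6 of 20. Probes dim on 1 array were counted here with their full change. The share over all probes counted in this way was not worked out. Over the genes measured it was 7.91%, by a rule that limits the change of dim probes. The highest single change beside Phlda2 was 4.9, above that of Phlda2 itself and in the same direction, and its part in the value of Phlda2 was not tested.

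The background correction moved the size of the change, by over 1.5 times for 5 of the 6 genes. The normexp correction, with an offset of 50, pulls low signals together and gave the folds of the opening paragraph. With no background subtracted the fold was 13.4 for Tlcd3a, 5.03 for Pcdh20, 7.52 for B930025P03Rik, 6.74 for Nxph3 and 6.69 for Phlda2. Mfsd2a, bright on both arrays, kept a fold of 19.7 and of 21.8 in these settings. All 6 genes were past 2-fold in these 2 settings and under both other scalings, though they had been chosen for large changes. Keeping outlier spots and averaging the probes of a gene could not move them, since each had 1 probe and 1 spot without a flag.

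**Figure D2:**
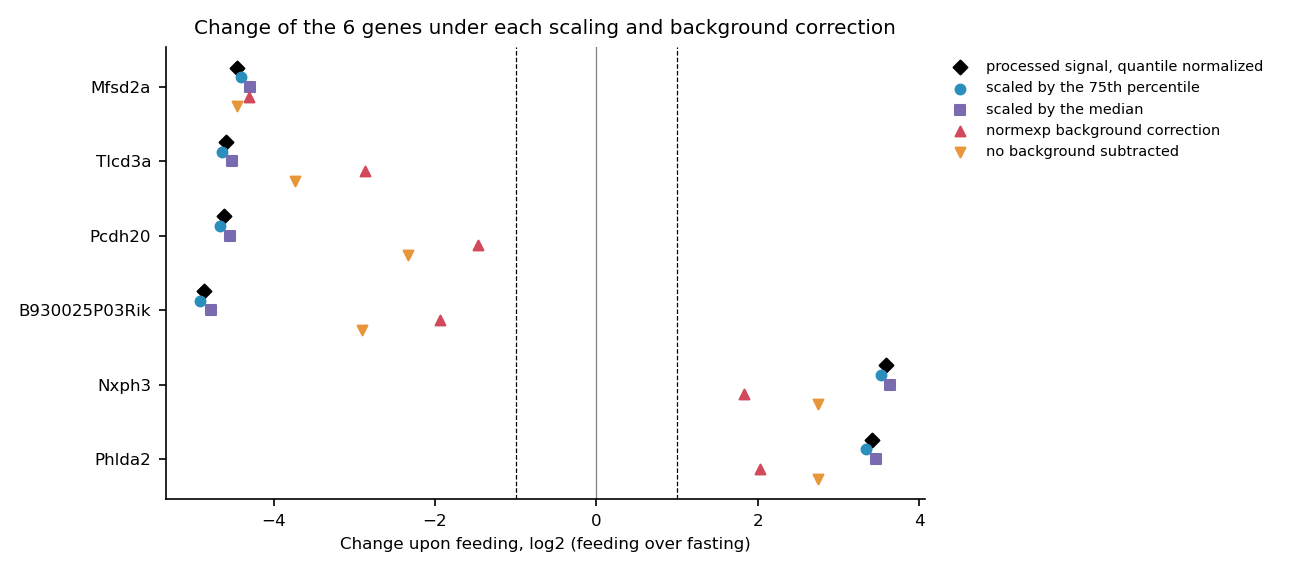
Change of each of the 6 genes upon feeding (log2, horizontal axis) with quantile normalization of the processed signal, under 2 other scalings, and under 2 other treatments of the background, 1 array per group. Dashed lines mark 2-fold. The points of Mfsd2a lie together, between -4.45 and -4.29, whereas Pcdh20 runs from -4.66 to -1.47 and Nxph3 from 1.83 to 3.64.

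Of all 16346 genes measured, 1293 were past 2-fold (7.91%). Of these, 537 (3.29% of the genes measured) had the higher signal upon feeding and 756 (4.62%) the lower. Since the 6 genes were selected on this contrast, that all of them are among these is no result. When each array was scaled by its median instead, 717 genes were higher and 649 lower, so that the balance of directions depended on the scaling. In 12260 genes no probe was dim on either array and all probes of the gene had the same sign of change, and in this set B930025P03Rik, Pcdh20, Tlcd3a and Mfsd2a ranked 2 to 5 of the decreases and Nxph3 and Phlda2 ranked 4 and 5 of the increases.

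The gene ahead of them among the decreases of this set was Ppp1r3g, a glycogen-targeting subunit of protein phosphatase (32.3-fold, from 8672 to 268.1). Just beyond Mfsd2a came Igfbp1, the insulin-repressed binding protein of insulin-like growth factors (20.0-fold, from 96450 to 4811), Lpin2, a phosphatidate phosphatase (18.4-fold), and Ctcflos (17.8-fold). Lpin1, another phosphatidate phosphatase, was 25.8-fold lower (from 6224 to 241.6) but is outside this set, because the signal of its other probe was not well above background upon feeding. The increases of the set ahead of Nxph3 were Angptl8, an inhibitor of lipoprotein lipase activity (26.3-fold), and the endoplasmic reticulum genes Derl3 (16.3-fold) and Sdf2l1 (14.5-fold). Beyond Phlda2 came Cyp4f39 (9.53-fold), Srebf1, the lipogenic transcription factor (8.9-fold), and Mthfsd (8.82-fold). No step in size separated the members from these genes.

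The place of the members depended on the filter and on the background correction. Over all genes measured, including those whose change was only a lower bound because the probe was dim on 1 array, Mfsd2a ranked 10, Tlcd3a 9, Pcdh20 8 and B930025P03Rik 6 of the decreases, and Nxph3 9 and Phlda2 10 of the increases. With normexp, Mfsd2a ranked 3 and Tlcd3a 12, but B930025P03Rik ranked 71 and Pcdh20 139 of the decreases, and Phlda2 ranked 18 and Nxph3 33 of the increases. Of the 5624 probes that matched no gene and were dim on neither array, none moved as far as Mfsd2a downwards or as Phlda2 upwards.

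**Figure D3:**
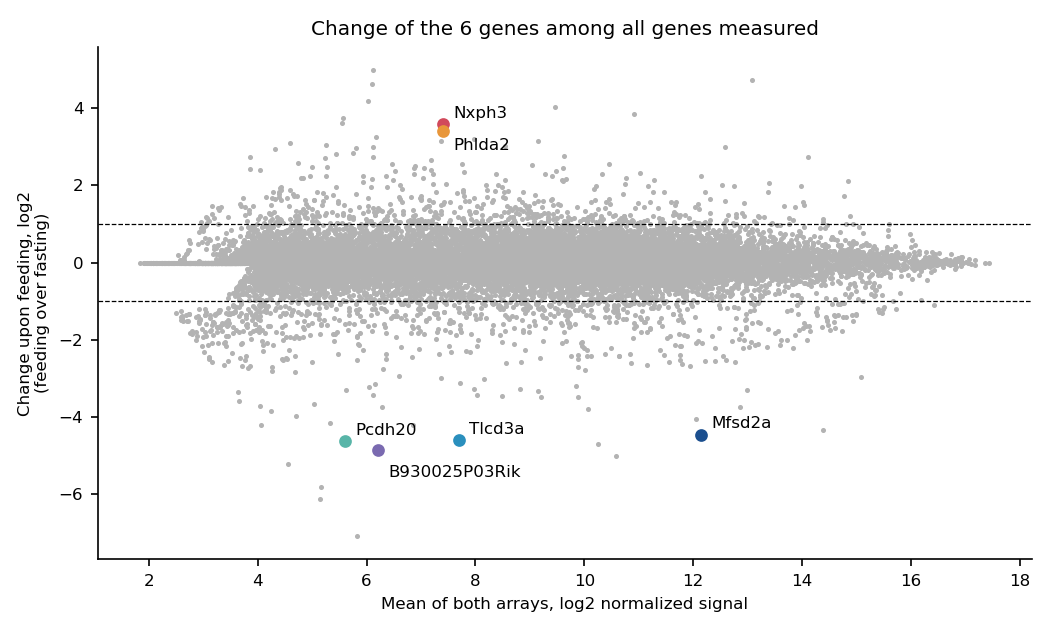
Change upon feeding (log2, vertical axis) against the mean log2 normalized signal of both arrays (horizontal axis) for 16346 genes measured, in grey, and the 6 genes in colour. Dashed lines mark 2-fold, and the grey points on the zero line are genes whose bound allowed no direction. The 6 genes lie at the edge of the cloud, 4 at -4.45 to -4.86 and 2 at 3.41 and 3.59, with Mfsd2a alone at high mean signal.

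The arrays carried other genes with a known response to food. Of 20 genes known to be induced by fasting in liver, 14 had at least 2-fold less signal upon feeding, against 4.62% over all genes. The median of the 20 was -1.07. Lpin1 (-4.69), Igfbp1 (-4.33) and Ddit4 (-3.73) were the lowest, whereas Cyp4a10 (0.0) and Cyp4a14 (-0.01) hardly differed. Of 17 genes known to be induced by feeding, 10 were past 2-fold higher, against 3.29% over all genes, with a median of 1.26. Among them were Angptl8 (4.72), Srebf1 (3.15) and Fasn (3.02), the fatty acid synthase. Scd1, of the same list, went the other way (-0.83, from 60410 to 33940). The median over all genes measured was 0.0, a value largely set by the quantile normalization, and 0.09 with each array scaled by its median. Mfsd2a, itself known as a fasting gene, was also lower upon feeding, but it was selected on this change, so its direction adds no evidence.

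The other transporters of the family of Mfsd2a were read in the same way. Of 21 other MFSD family genes measured, none was past 2-fold higher and 1 was lower, against 3.29% and 4.62% over all genes, with a median of -0.08 (0.02 with each array scaled by its median). The lower one was Mfsd11 (-1.04, from 208.0 to 101.0), which was at -0.55 with normexp. Spns2, a sphingosine 1-phosphate exporter, was at 0.97, and at 1.17 with scaling by the median. Single probes, dim ones included, ran from -1.9 to 0.35 for Mfsd4a, from -1.12 to 0.61 for Mfsd6 and from -1.07 to -0.66 for Mfsd1. A list of lysophospholipid handling also held genes of other phospholipid and fatty acid steps, such as Pemt, Fads1, Fads2 and Acsl6. Of its 28 genes measured, 3 were lower and none higher, with a median of -0.15. Gpcpd1, a glycerophosphocholine phosphodiesterase, was at -2.16 (from 553.8 to 123.7), and remained past 2-fold with normexp (-1.38). The choline phosphodiesterase Enpp6 (-1.68) and the endothelial lipase gene Lipg (-1.6) had low signals, and were at -0.31 and -0.16 with normexp.

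In the TLC domain and ceramide synthase family, to which Tlcd3a belongs, 3 of 12 other genes measured were past 2-fold lower and none was higher, against 4.62% and 3.29% over all genes, with a median of 0.02. These were Cln8, which encodes a cargo receptor of the endoplasmic reticulum (-1.48, from 5629 to 2023), Tlcd5 (-1.43, and -0.8 with normexp) and Tlcd4 (-1.1, and -0.88 with scaling by the median), of which only Cln8 was past 2-fold in every alternative tried. Of the 26 genes of ceramide metabolism measured, none was past 2-fold. The one with the largest change was Sphk1, a sphingosine kinase, at -0.88.

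The non-clustered protocadherins, among which Pcdh20 is counted, showed no common direction. Of 8 others measured, 2 were past 2-fold higher and 1 lower, with a median of 0.07. The shares over all genes were 3.29% and 4.62%, and so few genes allow no comparison with them. Pcdh10 was at least 1.22 higher, as a bound, with probes that disagreed. Pcdh18 was at 1.18 and Pcdh15 at -1.46, and with normexp none of the 3 was past 2-fold. All of these had low signals, and the 6 probes of Pcdh15 ran from -1.46 to 0.92.

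For Nxph3, the other neurexophilins and the genes of their receptors were examined. Its relatives Nxph1 and Nxph2 were not well above background on either array. None of 9 other neurexophilin, neurexin and neurexin ligand genes measured was past 2-fold by its brightest probe, against 7.91% over all genes, with a median of -0.21. The one that differed most was Nxph4 at 0.59. Single probes, dim ones included, ran from -0.21 to 1.49 for Nrxn2 and from -1.41 to 0.51 for Nrxn3. As means of their probes, none of the 9 was past 2-fold. For Phlda2, the PHLDA family and its imprinted neighbourhood were examined. Phlda1 was also higher upon feeding (1.26, from 4574 to 10990), also with normexp (1.27), whereas Phlda3 was at 0.07. Of 14 other genes of the imprinted domain measured, none was past 2-fold, with a range of -0.83 (Nap1l4) to 0.59 and a median of 0.01.

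**Figure D4:**
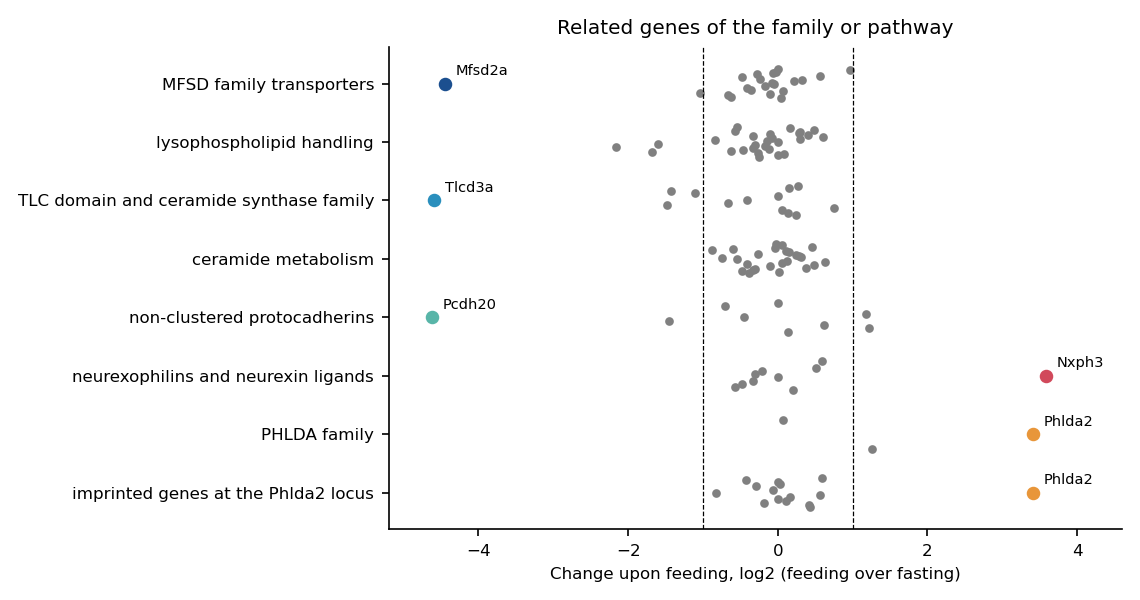
Change upon feeding (log2, horizontal axis) of the related genes measured for each list, in grey, and of the members, in colour and named. Dashed lines mark 2-fold, and the vertical scatter within a list has no meaning. The related genes lie between -2.16 and 1.26, whereas the members lie at -4.45 or below and at 3.41 or above.

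The genes on either side of each member on the chromosome were examined by their order in the GRCm38.p6 table. Of the 60 protein-coding genes taken, 5 on each side, 49 were measured, 3 were higher past 2-fold and 3 were lower, where the shares over all genes were 3.29% and 4.62%, and their median change was 0.0. Next to Mfsd2a on chromosome 4, Mycl, a transcription factor of the MYC family, was lower in the same direction (-1.97, from 308.0 to 78.47), also with normexp (-1.12), while Cap1 on the other side was at 0.66. Next to B930025P03Rik on chromosome 8, Irs2, the insulin receptor substrate, was lower (-1.08, from 148.8 to 70.54), but at -0.42 with normexp. Its neighbour on the other side, Myo16, had no matched probe.

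The direct neighbours of the remaining members did not pass 2-fold. For Tlcd3a on chromosome 11 these were Vps53 (0.74) and Gemin4 (0.96, or 1.12 with scaling by the median), opposite in sign to Tlcd3a. For Pcdh20 on chromosome 14 they were Tdrd3 (-0.36) and the protocadherin gene Pcdh9, which was not well above background upon fasting. For Nxph3, also on chromosome 11, they were Spop (-0.23, and -1.06 as the mean of its 3 probes) and Ngfr (0.31). For Phlda2 on chromosome 7 they were Slc22a18 (-0.29) and Nap1l4 (-0.83, and -1.15 as the mean of its 2 probes). Of the genes farther out, Oxct2b near Mfsd2a was at -1.21, and Rflnb and Mrm3 near Tlcd3a were at 1.72 (a bound) and 1.04, but with normexp these were at -0.31, 0.29 and 0.67. Slc35b1 near Nxph3 was at 1.02, and at 1.03 with normexp.

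**Figure D5:**
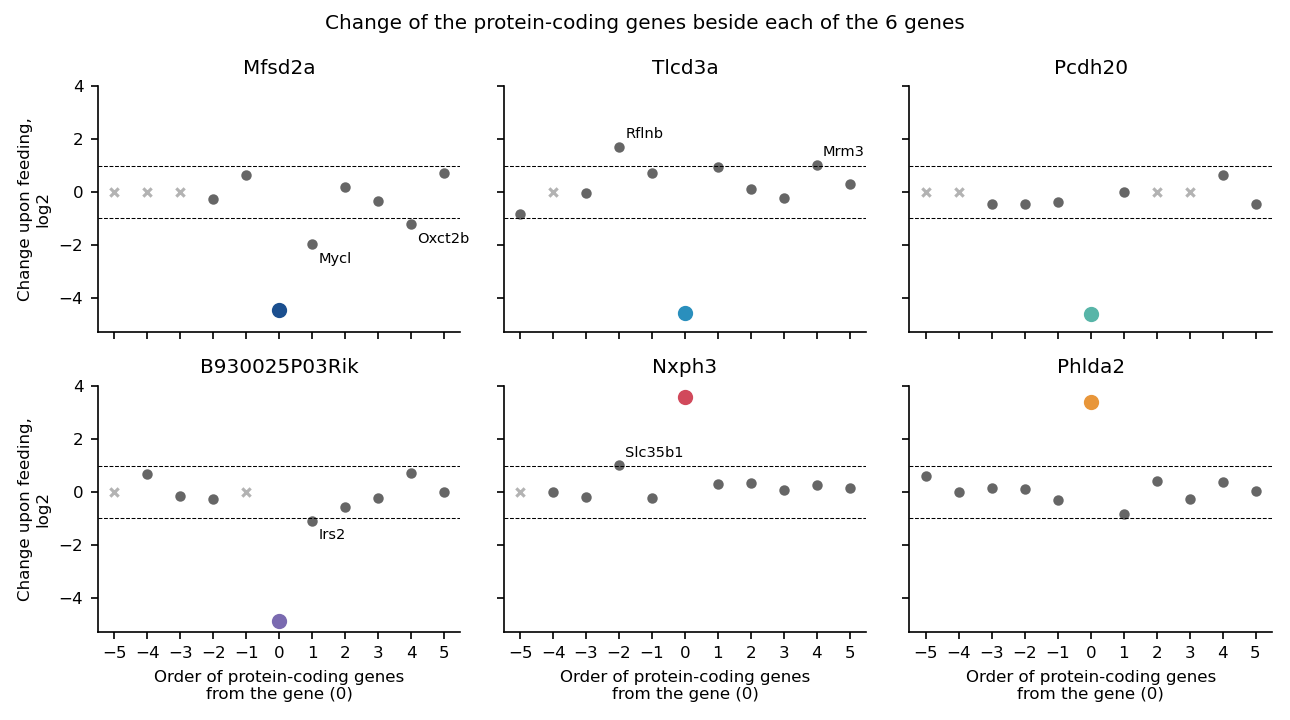
Change upon feeding (log2, vertical axis) of the 5 protein-coding genes on each side of each member, by their order along the chromosome (horizontal axis). The member is the coloured point at 0, crosses on the zero line are genes without a measured value, and dashed lines mark 2-fold. Genes past 2-fold are named, and of these Mycl at -1.97 beside Mfsd2a is the lowest.

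As a long non-coding RNA, B930025P03Rik was compared with its class. Of 441 long non-coding RNA genes measured, 28 were past 2-fold higher (6.35%) and 29 lower (6.58%), against 3.29% and 4.62% over all genes. Of the 496 genes that still carry a RIKEN clone name, 17 were higher (3.43%) and 25 lower (5.04%), near the shares over all genes. The value of -4.86 for B930025P03Rik was the lowest in both sets with the processed signal, on which the gene was selected, and no such place was worked out with normexp, where it was at -1.94. In these 2 sets, 126 and 119 of the values were lower bounds.

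Since several of the 6 genes are described mainly in other tissues, markers of cell types were read on the same arrays, and their part in the changes was not tested. In a bulk sample, fewer cells of a type and less RNA per cell cannot be told apart. None of the 7 hepatocyte markers was past 2-fold (Tat had the largest change, -0.97, and Alb was at -0.07). Their summed normalized signal was 622600 upon fasting and 552700 upon feeding. Tat (from 104900 to 53470), also in the list of genes induced by fasting, was the main source of the difference. The sum was 37610 and 28740 for the 6 endothelial markers, of which Pecam1 was past 2-fold (-1.04), 58860 and 41820 for 5 Kupffer cell markers, 39640 and 31170 for 6 stellate cell markers and 5501 and 4188 for 4 leukocyte markers, with none of these 15 past 2-fold. Over all genes 3.29% were past 2-fold higher and 4.62% lower, and so few markers allow no comparison with these shares. All marker sums rest on quantile normalization and were not worked out under another scaling. Of the 5 cholangiocyte markers, Sox9 was higher (2.11, from 376.7 to 1625), while Spp1 was at -0.46, Krt19 at -0.31 and Epcam at 0.08. The sum was 2757 and 3377, with Sox9 as the main source of the difference.

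Of the neuronal markers, which bear on Nxph3 and Pcdh20, 4 of 5 were measured, with a sum of 299.1 upon fasting and 398.1 upon feeding. Snap25 was higher (2.01, and 0.99 with normexp) and Syt1 lower (-1.27, and -0.41 with normexp), so that they did not move together. Among the adipocyte markers Adipoq and Lep were not well above background on either array, and the sum of the 2 measured, 8681 and 5092, was almost wholly Cidec (8679 and 5081), which hepatocytes also express. Of the pancreas markers, 4 of 5 were measured, with a sum of 217.8 and 208.8, and Prss2 was at least 1.37 higher as a bound.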

How the data were processed

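The authors labelled liver RNA with Cy3, hybridised it to Agilent mouse arrays and deposited Feature Extraction 11.0.1.1 output, in which the processed signal is an intensity per spot after background subtraction, not normalized between arrays. The deposited series value table held the local background and was not used. Per array, 44397 spots were read (43020 not controls), 123 upon fasting and 98 upon feeding being outliers, which were dropped. Well above background were 63.1% and 72.3% of spots, the median processed signal was 61.5 and 52.8 and the median local background 30.0 and 22.0.

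Spots of a probe were averaged as log2 processed signal. Quantile normalization and the 2-fold threshold are those of the study, which normalized what it calls raw data in GeneSpring, with the background handling not given in the sources used here. Of 39402 probes, 27218 were matched to RefSeq transcripts (GRCm38.p6). A gene was its brightest probe, kept if well above background on at least 1 array, with a lower bound where it was dim on the other. The spread came from the 30 replicated probes, of 399, nearest in signal. Their number, 1 array per group, limits the precision.

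Genes were named by a rule: the 6 members, the genes ranked between them and the next 3, at most 3 past 2-fold per list, and the direct chromosome neighbours. The farther neighbours past 2-fold, and genes named as next or opposite in a list, were named after their values were seen. Members and lists were chosen with earlier results of these data known. Calculations used Python 3.11.15, numpy 2.4.6, pandas 2.3.3 and, for normexp, limma 3.58.1 in R 4.3.3, and were tested on simulated data.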

Additional observations from a re-analysis of the deposited data

How the results depend on the processing

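With normexp the changes were -4.3 for Mfsd2a, -2.87 for Tlcd3a, -1.47 for Pcdh20, -1.94 for B930025P03Rik, 1.83 for Nxph3 and 2.03 for Phlda2. With no background subtracted they were -3.74 for Tlcd3a, -2.33 for Pcdh20, -2.91 for B930025P03Rik, 2.75 for Nxph3 and 2.74 for Phlda2, and with scaling by the median Mfsd2a was at -4.29. The remaining scalings moved each change by less than the spot SD. Keeping outlier spots and averaging probes left the values as they were by construction, since each gene had 1 probe and 1 spot without a flag. The count of genes past 2-fold, 1293, was 527 with normexp (215 higher and 312 lower), 751 with no background subtracted and 2023 with no filter on dim probes. At 3-fold it was 469 and at 1.5-fold 3451. The other alternatives gave 1098 to 1636.

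No paired analysis was possible because each group has 1 array. No array was left out for the same reason. The spot SD covers the measurement on the array and not differences between mice, pools, hybridisations or times of day. The feeding values of Pcdh20 and B930025P03Rik and the fasting value of Nxph3 reached the range of the negative controls, so that their folds rest on the background correction. Each member was read by 1 probe, and no second probe was there to compare it with.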
